A study of Mus musculus with 6 samples.

Results

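The 10 genes described here encode antioxidant enzymes of the kidney and targets of the transcription factor NRF2: Gpx3, Gpx4, Cat, Sod1, Sod2, Nqo1, Hmox1, Gclc, Gclm and Txnrd1. They were chosen by gene symbol, with earlier results of these data known. All 10 were found among the 46095 genes of the count table, and all 10 passed the filter on low counts that left 14611 genes for testing. RNA had been sequenced from primary renal tubular epithelial cells (PTECs), freshly isolated from kidneys of mice aged 10 weeks on a C57 background. The label VHL-KO (replicates 1, 2 and 4, 3 mice) stands for Ksp-Cre with VHL fl/fl. The label VHL-KO;SETD2-KO (replicates 2, 3 and 4, 3 mice) stands for Ksp-Cre with VHL fl/fl and Setd2 fl/fl. Ksp-Cre is driven by the promoter of Cdh16, a cadherin gene of renal tubular epithelium, so the design intends deletion of Vhl in these cells in both groups, and no library with intact Vhl was analysed here. The comparison was meant to address which transcripts differ when Setd2 is targeted in tubular cells in which Vhl is targeted too.

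NRF2, the product of Nfe2l2, is a transcription factor that KEAP1 holds back by directing it to degradation. Oxidants and electrophiles release it, and it then binds antioxidant response elements with small MAF partners and raises enzymes of quinone reduction, glutathione synthesis, thioredoxin reduction and heme breakdown. Superoxide dismutases turn superoxide into hydrogen peroxide, and catalase and the glutathione peroxidases remove peroxides. VHL marks hypoxia-inducible factors for degradation, and SETD2 is a histone methyltransferase of transcribed genes. Proximal tubule cells are rich in mitochondria and peroxisomes, and they are the source of the GPX3 secreted into plasma.

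The libraries held 11168552 to 17883466 counts. Levels are given as normalised CPM, counts scaled to a common library total with library sizes adjusted by edgeR's TMM factors. The library labelled VHL-KO 4 stood apart from the other 5. Its Spearman correlation with them across genes was 0.717 to 0.765, against 0.937 to 0.987 among the others, and mitochondrial genes took 11.3% of its counts against 25.9% to 36.4%. Relative to VHL-KO 1 and 2, its median log2 ratio ran from 0.97 in genes with transcripts under 1000 bases to -1.44 in genes with transcripts of at least 6000 bases. The same ratio for the mean of the VHL-KO;SETD2-KO libraries lay between -0.012 and 0.064 in every length class. Setd2 went against its label: its counts were 1179, 799 and 132 under the labels VHL-KO 1, 2 and 4, and 1499, 1019 and 1429 in those labelled VHL-KO;SETD2-KO 2, 3 and 4, with an edgeR log2 fold change of 0.52 and an adjusted p of 0.787; without VHL-KO 4 the log2 fold change was 0.052 and the adjusted p 0.913. These counts cover the whole gene and do not check an exon deletion, and Vhl, targeted in both groups, gave a log2 fold change of -0.26 with an adjusted p of 0.833. For Xist, 11704 counts were found under the label VHL-KO;SETD2-KO 3 and 0 to 4 elsewhere. The sample titles name no sex, and whether that library differs from the others through the sex of its mouse was not tested. Every result is therefore a comparison of libraries by their labels, where VHL-KO 4, for example, stands for the library so labelled, and the members' results are given with and without that library. Whether labels were exchanged was not tested, and an exchange of the 2 groups would turn every direction given here. The paper reports lower SETD2 mRNA by RT-qPCR in mice lacking both genes than in VHL-KO mice, the direction that the labels give.

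No member passed the test after adjustment. The edgeR log2 fold changes (libraries labelled VHL-KO;SETD2-KO over VHL-KO) of all 10 lay below 0, although Gpx3 and Hmox1 turned above 0 without the library labelled VHL-KO 4, Gclc was 0.013 in limma-voom, and Gclc and Txnrd1 reached 0.16 and 0.012 in fits that left out another library. In edgeR's quasi-likelihood test, 0 of 10 members had a Benjamini-Hochberg adjusted p under 0.05 with a fold of at least 1.5, in either direction. Over all tested genes that rule called 0% higher and 0.00684% lower, the latter being Gm6344, a predicted gene that no list held and that was picked out by its value. At an unadjusted p under 0.05 with the same fold, 3 members were called lower in libraries labelled VHL-KO;SETD2-KO (Gpx4, Sod1 and Nqo1) and 0 higher, where the background was 4.68% of all tested genes lower and 2.66% higher. DESeq2 called Gpx4, Sod1 and Nqo1 at an unadjusted p (7.75% of all tested genes lower) and 0 at an adjusted p (0.383% lower), with no adjusted p assigned to Nqo1, Hmox1 or Txnrd1, and limma-voom called Nqo1 alone at an unadjusted p (3.33% of all tested genes lower). The 2 groups of 3 libraries did not overlap for 5 members, all lower in libraries labelled VHL-KO;SETD2-KO (Gpx4, Sod1, Sod2, Nqo1 and Gclm), against 11% of all tested genes. The median log2 fold change was -0.71 over the 10 members and 0.0095 over all tested genes. As these are bulk samples, fewer cells of a type and less RNA per cell cannot be told apart.

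**Figure D1:**
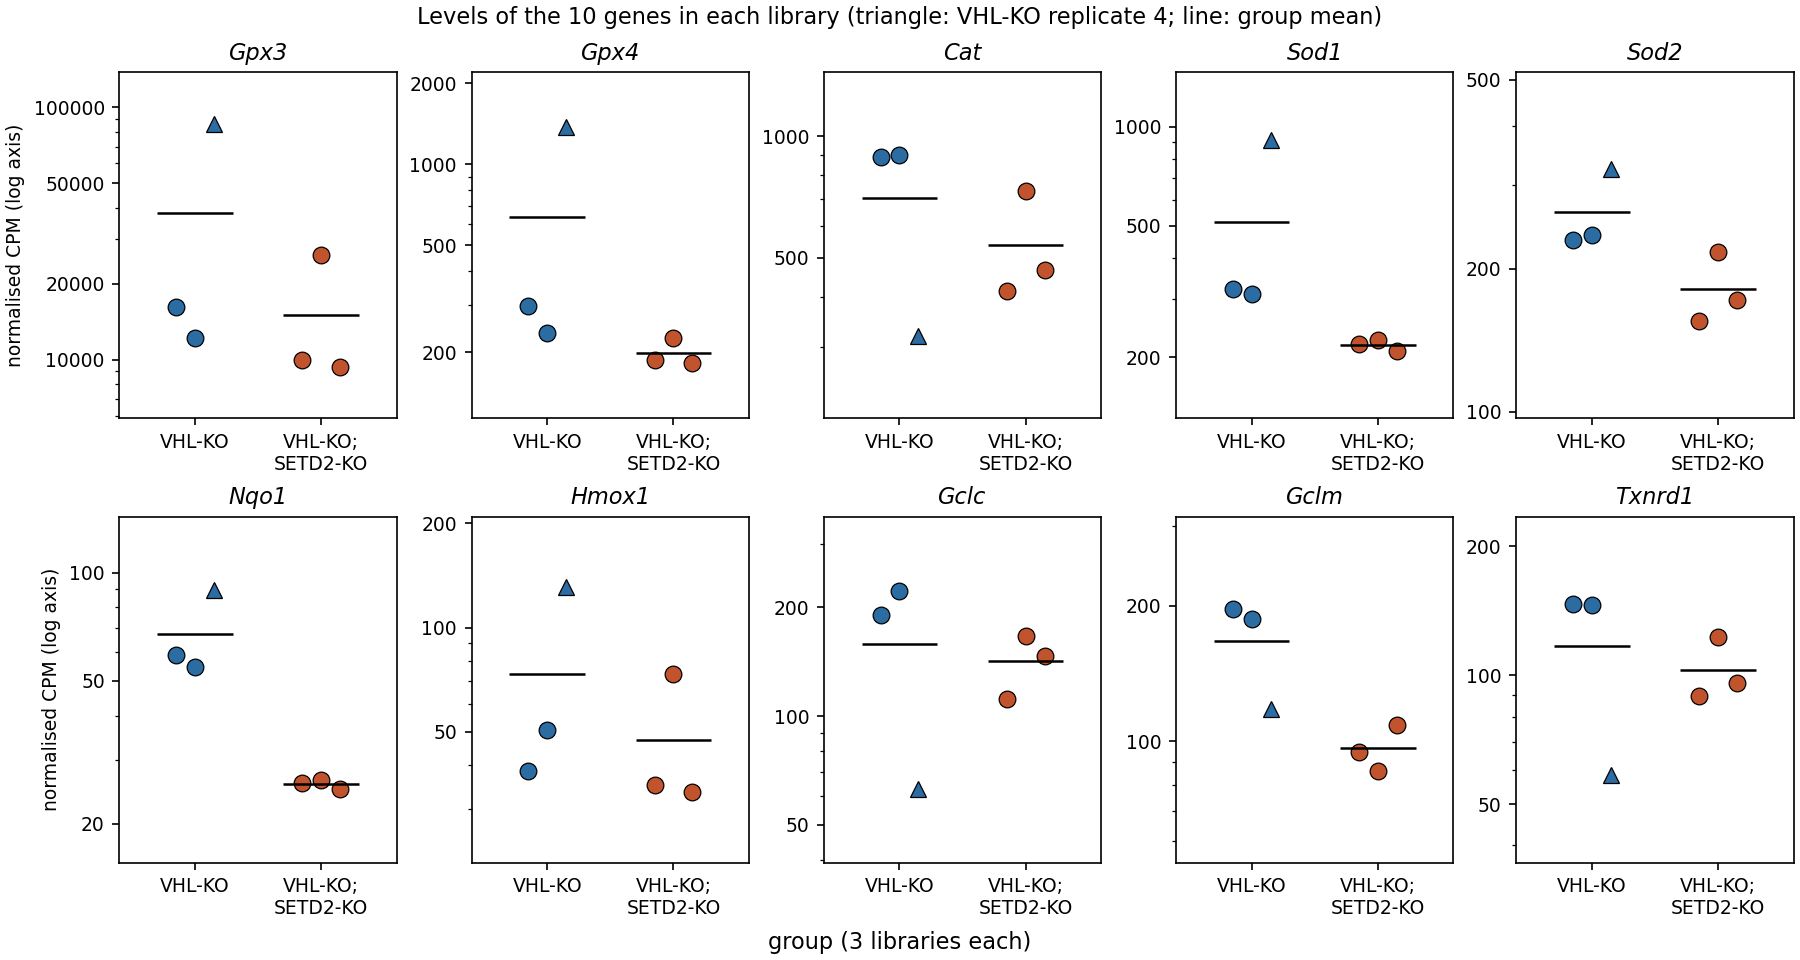
Normalised CPM (log axis) of each of the 10 genes in the 6 libraries, with a horizontal line at each group's mean and a triangle for the library labelled VHL-KO 4. For Nqo1 the 3 libraries labelled VHL-KO;SETD2-KO lie between 24.9 and 26.5, below all of the others at 54.6 to 89.4, while for Gpx3 and Hmox1 the groups overlap.

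Nqo1 had the smallest p among the 10 members, and only 0.479% of all tested genes had a smaller p. NQO1 is the cytosolic quinone reductase that serves as a standard readout of NRF2, and its gene lies at chr8:107388225-107403206 (minus strand, GRCm38, GENCODE). It stood at 58.9, 54.6 and 89.4 normalised CPM across the libraries labelled VHL-KO 1, 2 and 4, and at 25.9, 26.5 and 24.9 in those labelled VHL-KO;SETD2-KO 2, 3 and 4. The groups did not overlap, and the 3 libraries labelled VHL-KO;SETD2-KO lay close together (25.8 ± 0.811, SD, n = 3) below the others (67.7 ± 18.99). The edgeR log2 fold change was -1.39 (SE 0.39, a 2.62-fold lower level), with an unadjusted p of 0.00673 and an adjusted p of 0.625. Without the library labelled VHL-KO 4 it was -1.14 (SE 0.12), with an unadjusted p of 7.71e-05 and an adjusted p of 0.0776. Nqo1 was called at an unadjusted p in 14 of 15 alternative settings.

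Gclm, the modifier subunit of glutamate-cysteine ligase, which makes the catalytic subunit more efficient in the rate-limiting step of glutathione synthesis, had the next smallest p once the library labelled VHL-KO 4 was left out. The gene lies at chr3:122245557-122270732 (plus strand). Its levels were 197, 187 and 118 normalised CPM across the libraries labelled VHL-KO 1, 2 and 4, against 94.6, 86.0 and 109 in those labelled VHL-KO;SETD2-KO 2, 3 and 4. All 3 of the latter lay below all 3 of the former, and VHL-KO 4 was nearest to them. With 6 libraries the log2 fold change was -0.79 (SE 0.40), and the unadjusted p of 0.0827 did not reach the threshold in edgeR's test. Without the library labelled VHL-KO 4 the value was -0.996 (SE 0.16), with an unadjusted p of 0.000704 and an adjusted p of 0.0776 in edgeR's test, as for Nqo1.

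Among the main test and 15 alternatives, DESeq2 without the library labelled VHL-KO 4 was the only setting in which a member passed both the adjusted threshold and the fold. There Nqo1 had an adjusted p of 7.38e-09 and Gclm 8.09e-06, where 4.71% of all tested genes were called lower and 3.63% higher at an adjusted p. Sod1 also had an adjusted p under 0.05 there, 0.00268, with a fold below 1.5. Over the alternatives that gave an adjusted p, these 3 members each reached up to 0.982.

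The sequence before the start site is given for Nqo1 and Gclm, the members with the smallest p without the library labelled VHL-KO 4, beside those of Txnrd1 and Sod1, which hold the same motif as Gclm. The antioxidant response element core was searched as TGACNNNGC and the hypoxia response element core as ACGTG or GCGTG, on both strands, in RefSeq windows of GRCm38.p6 from 250 bases before to 50 bases after each start site. Windows were found for 8 of the 10 members (13 windows), without Hmox1 and Gclc. The printed stretches end at the base before the start site, run 5′ to 3′ on the gene's strand, and carry matches to the antioxidant core in capitals.
Nqo1 (chr8:107403206-107403455, minus strand): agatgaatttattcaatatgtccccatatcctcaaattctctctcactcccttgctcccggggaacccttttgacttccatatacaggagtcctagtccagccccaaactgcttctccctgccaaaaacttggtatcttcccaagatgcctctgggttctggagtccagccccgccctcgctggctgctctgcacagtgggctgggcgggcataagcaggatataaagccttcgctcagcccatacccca
Gclm (chr3:122245307-122245556, plus strand): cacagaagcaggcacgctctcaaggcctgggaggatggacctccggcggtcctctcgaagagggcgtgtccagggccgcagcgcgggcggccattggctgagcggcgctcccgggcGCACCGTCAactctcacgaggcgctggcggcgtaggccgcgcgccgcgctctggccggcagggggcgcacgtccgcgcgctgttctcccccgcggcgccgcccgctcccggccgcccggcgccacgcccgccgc
Txnrd1 (chr10:82858956-82859205, plus strand): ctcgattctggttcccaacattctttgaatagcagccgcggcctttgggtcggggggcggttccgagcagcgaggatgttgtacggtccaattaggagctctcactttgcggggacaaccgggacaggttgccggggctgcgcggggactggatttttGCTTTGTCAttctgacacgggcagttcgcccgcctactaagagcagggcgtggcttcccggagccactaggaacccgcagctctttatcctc
Sod1 (chr16:90220512-90220761, plus strand): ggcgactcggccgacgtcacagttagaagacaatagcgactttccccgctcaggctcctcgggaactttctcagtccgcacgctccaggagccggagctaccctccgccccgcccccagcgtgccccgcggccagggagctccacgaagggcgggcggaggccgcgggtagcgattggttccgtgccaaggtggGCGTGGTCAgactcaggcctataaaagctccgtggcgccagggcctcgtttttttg
The match in Gclm (GCACCGTCA, the core read on the other strand) begins at position -134 from the start site, that in Txnrd1 (GCTTTGTCA) at position -92, and that in Sod1 (GCGTGGTCA) at position -56. The match in Sod1 shares its first 5 bases with a match to GCGTG. In all, 3 members held the antioxidant core, as did 12.4% of 32851 windows and 14% of the genes they belong to. A hypoxia core was held by 5 members (Gpx4, Sod1, Sod2, Gclm and Txnrd1), as by 46.7% of genes. The windows of Nqo1, Gpx3 and Cat held neither, which says only that these letters are not in this stretch.

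Gclc, the catalytic subunit of glutamate-cysteine ligase (chr9:77754535-77794485), overlapped between groups. It stood at 191, 223 and 62.9 normalised CPM across the libraries labelled VHL-KO 1, 2 and 4, and at 112, 166 and 147 in those labelled VHL-KO;SETD2-KO 2, 3 and 4. VHL-KO 4 was the lowest of the 6 and VHL-KO 1 and 2 the highest. The edgeR log2 fold change was -0.16 (SE 0.53, unadjusted p = 0.765), and without the library labelled VHL-KO 4 it was -0.55 (SE 0.21, unadjusted p = 0.0401), a fold of 1.46 that fell short of the fold threshold.

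Txnrd1, the cytosolic thioredoxin reductase and a selenoprotein (chr10:82833951-82897712), showed the same arrangement. Its levels were 147, 146 and 58.4 normalised CPM across the libraries labelled VHL-KO 1, 2 and 4, against 89.6, 123 and 95.7 in those labelled VHL-KO;SETD2-KO 2, 3 and 4. Again VHL-KO 4 was the lowest library and VHL-KO 1 and 2 the highest. The log2 fold change of -0.19 (SE 0.47, unadjusted p = 0.699) became -0.52 (SE 0.18, unadjusted p = 0.0281) without the library labelled VHL-KO 4.

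Hmox1, the inducible heme oxygenase that opens heme (chr8:75093621-75100589), overlapped between groups with and without the library labelled VHL-KO 4. It was measured at 38.5, 50.6 and 131 normalised CPM across the libraries labelled VHL-KO 1, 2 and 4, and at 35.1, 73.4 and 33.5 in those labelled VHL-KO;SETD2-KO 2, 3 and 4. The highest value of each group came from a single library, VHL-KO 4 and VHL-KO;SETD2-KO 3, and the remaining 4 lay between 33.5 and 50.6. In edgeR's test it had a log2 fold change of -0.63 (SE 0.58, unadjusted p = 0.311), which turned to 0.083 (unadjusted p = 0.832) without the library labelled VHL-KO 4.

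Gpx3, the secreted glutathione peroxidase of proximal tubule (chr11:54902453-54910377), was by far the most abundant member. Per kilobase of transcript it ranked 1 of 10 in every library, with a mean of 23970 normalised CPM per kilobase in libraries labelled VHL-KO and 9485 in those labelled VHL-KO;SETD2-KO. The next highest group means were those of Sod1, at 804 and 340, although VHL-KO 4 (1424) raised the first of these, and in VHL-KO 1 and 2 and VHL-KO;SETD2-KO 3 Cat was above Sod1. Gpx3 alone took 1.497%, 1.19% and 7.16% of all counts across the libraries labelled VHL-KO 1, 2 and 4, and 1.12%, 3.01% and 0.966% in those labelled VHL-KO;SETD2-KO 2, 3 and 4. As normalised CPM these were 16190, 12250 and 86210 against 9946, 26020 and 9394. VHL-KO 4 was highest and VHL-KO;SETD2-KO 3 second, so that the groups overlapped. The log2 fold change was -1.34 (SE 0.88, unadjusted p = 0.166) with 6 libraries and 0.084 (SE 0.55, unadjusted p = 0.883) without the library labelled VHL-KO 4.

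Gpx4 encodes the selenoprotein that reduces lipid hydroperoxides in membranes and restrains ferroptosis (chr10:80047166-80056439). In edgeR's test of 6 libraries Gpx4 had the most negative log2 fold change of the members. It stood at 296, 237 and 1373 normalised CPM across the libraries labelled VHL-KO 1, 2 and 4, and at 187, 226 and 182 in those labelled VHL-KO;SETD2-KO 2, 3 and 4. The groups did not overlap, but VHL-KO 4 was 5.16 times the mean of VHL-KO 1 and 2. The log2 fold change of -1.68 (SE 0.71, unadjusted p = 0.0456, adjusted p = 0.625 in edgeR's test) came to -0.43 (SE 0.19, unadjusted p = 0.0614) without that library. The call was also absent when any of the libraries labelled VHL-KO;SETD2-KO was left out, with log2 fold changes that stayed at -1.76 to -1.58 and unadjusted p of 0.0908 to 0.118.

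Cat, the peroxisomal catalase (chr2:103453849-103485160), was lowest in the library labelled VHL-KO 4. Its levels were 886, 899.9 and 320.4 normalised CPM across the libraries labelled VHL-KO 1, 2 and 4, and 413, 733 and 465 in those labelled VHL-KO;SETD2-KO 2, 3 and 4. VHL-KO 1 and 2 were the highest of the 6, and the groups overlapped. A log2 fold change of -0.39 (SE 0.53, unadjusted p = 0.491) was seen with 6 libraries, and without the library labelled VHL-KO 4 it was -0.74 (SE 0.28, a 1.67-fold lower level, unadjusted p = 0.0414, adjusted p = 0.230 in edgeR's test).

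Both superoxide dismutases were lower in every library labelled VHL-KO;SETD2-KO than in any labelled VHL-KO. Sod1, the cytosolic copper-zinc enzyme (chr16:90220754-90226329), stood at 323, 309.8 and 913 normalised CPM across the libraries labelled VHL-KO 1, 2 and 4, and at 219, 226 and 209 in those labelled VHL-KO;SETD2-KO 2, 3 and 4. The latter spanned a narrow range (218 ± 8.38, SD, n = 3) below the libraries labelled VHL-KO, which spread widely through VHL-KO 4 (515 ± 344.5). For Sod1 the log2 fold change was -1.24 (SE 0.54, unadjusted p = 0.0491, adjusted p = 0.625 in edgeR's test), and without the library labelled VHL-KO 4 it was -0.54 (SE 0.15, unadjusted p = 0.0103), a fold of 1.46 and so below the fold threshold. Leaving out any of the libraries labelled VHL-KO;SETD2-KO ended the call with little change in the log2 fold change (-1.25 to -1.18), at unadjusted p of 0.104 to 0.137. The call of Sod1 also ended with no filter on low counts (-1.15, unadjusted p = 0.0513) and with 10 counts in every library (-1.18, unadjusted p = 0.0518). Sod2, the manganese enzyme of mitochondria (chr17:13006846-13040063), was at 229.7, 235 and 324 against 155, 217 and 172 normalised CPM in the same order of libraries. The groups of Sod2 came closest at VHL-KO;SETD2-KO 3 and VHL-KO 1. The log2 fold change of -0.54 (SE 0.40, unadjusted p = 0.216) and that without the library labelled VHL-KO 4, -0.36 (SE 0.19, unadjusted p = 0.105), did not pass the test.

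**Figure D2:**
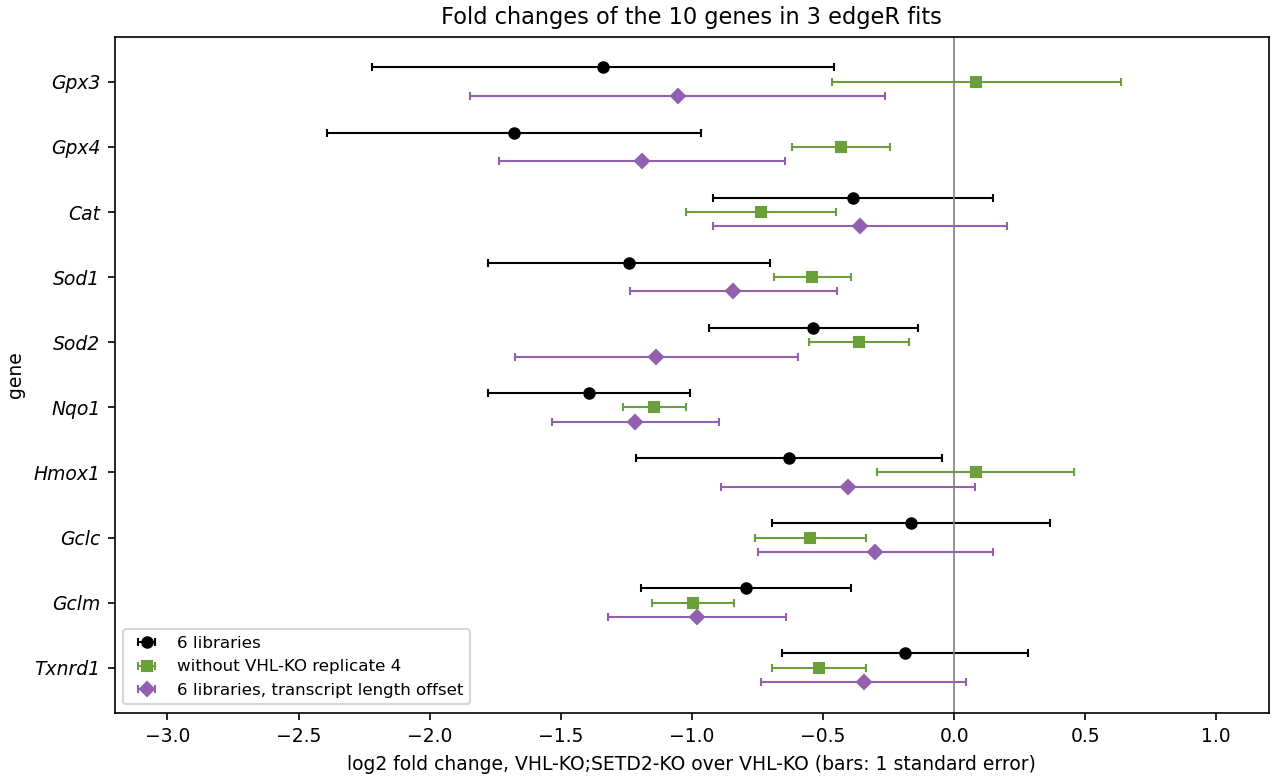
Log2 fold change (libraries labelled VHL-KO;SETD2-KO over VHL-KO, bars of 1 standard error) of the 10 genes in edgeR fits of 6 libraries, without the library labelled VHL-KO 4, and of 6 libraries with an offset for transcript length. Nqo1 stays between -1.39 and -1.14 in these 3 fits and Gclm between -0.996 and -0.79, whereas Gpx3 and Hmox1 move from -1.34 and -0.63 to 0.084 and 0.083 without the library labelled VHL-KO 4.

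The library labelled VHL-KO 4 divided the members by direction. Relative to the mean of VHL-KO 1 and 2, 6 members were higher in it, with log2 ratios of 2.60 for Gpx3, 2.37 for Gpx4, 1.55 for Hmox1, 1.53 for Sod1, 0.66 for Nqo1 and 0.48 for Sod2. The other 4 were lower, with log2 ratios of -0.70 for Gclm, -1.33 for Txnrd1, -1.48 for Cat and -1.72 for Gclc. Transcripts of Sod1 (641 bases) and Gpx4 (959 bases) are the shortest of the set, and those of Gclm, Gclc and Txnrd1 (3295.5 to 3428 bases) are longer. Cat (1696 bases), Sod2 (5861 bases) and Gpx3 (1594 bases) did not follow that order. The ratio of Gpx3 was above those of the shorter Sod1 and Gpx4, where the median of all tested genes of 1500 to 2000 bases was 0.56. An edgeR fit with an offset for transcript length, chosen after the values were seen, called Nqo1 (log2 fold change -1.22, SE 0.32, unadjusted p = 0.00509) and Gclm (-0.98, SE 0.34, unadjusted p = 0.0205), where 5.88% of the 13818 genes in that fit were called lower. Gpx4 and Sod1 then gave -1.19 (unadjusted p = 0.0604) and -0.84 (unadjusted p = 0.0651), and Sod2 moved from -0.54 to -1.14 (unadjusted p = 0.0688). Gclc and Txnrd1 came to -0.30 and -0.35.

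**Figure D3:**
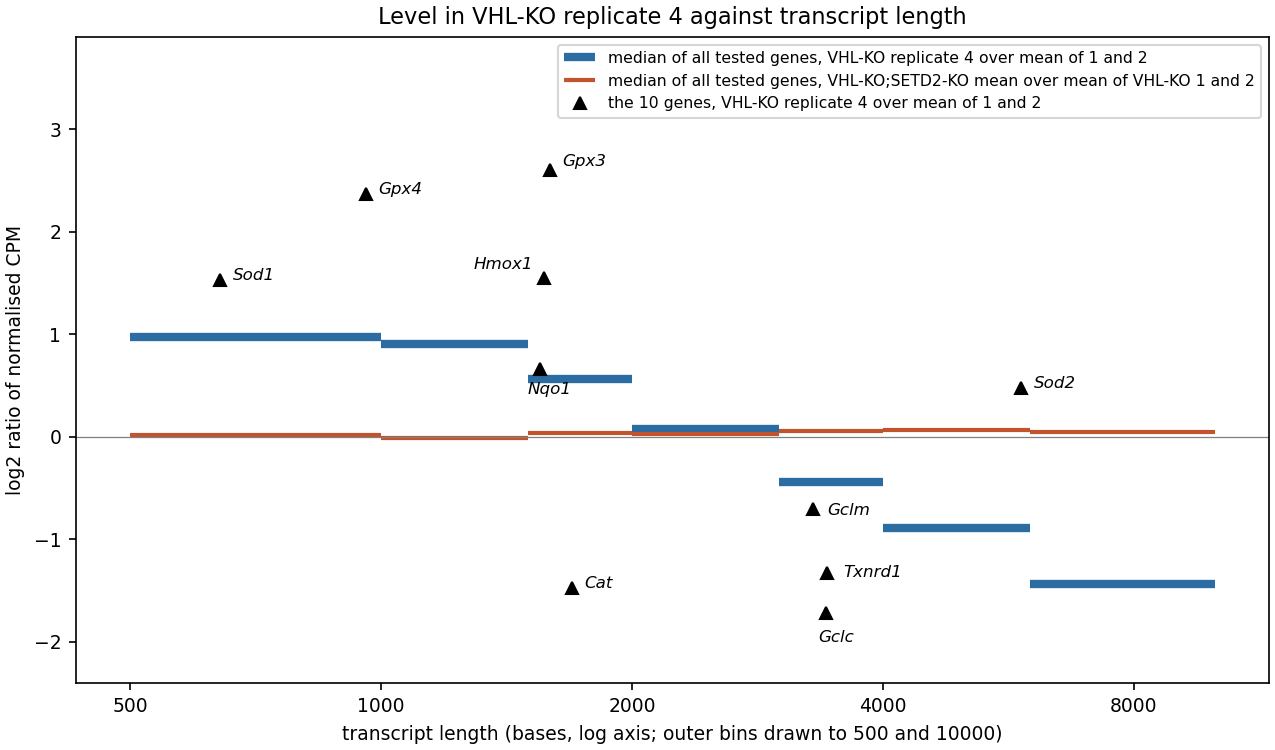
Log2 ratio of normalised CPM against transcript length (bases, log axis), with bars for the median of all tested genes in 7 length classes and triangles for the 10 members. The median of the library labelled VHL-KO 4 over VHL-KO 1 and 2 declines from 0.97 to -1.44 with length, while that of the VHL-KO;SETD2-KO mean stays within -0.012 and 0.064.

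Without the library labelled VHL-KO 4, 3 members were called lower at an unadjusted p (Cat, Nqo1 and Gclm) and 0 higher, against 7.15% of all tested genes lower and 8.29% higher. In that comparison of 2 with 3 libraries the groups did not overlap for 8 members, all lower in libraries labelled VHL-KO;SETD2-KO, against 21.2% of all tested genes. The exceptions were Gpx3 and Hmox1. The median log2 fold change was -0.53 over the members and 0.036 over all tested genes. Nqo1 was the member called in both fits.

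Some cell type markers were also called at an unadjusted p, but none passed at an adjusted p in edgeR's test. Over all tested genes that test called 4.68% lower and 2.66% higher at an unadjusted p with 6 libraries. Leaving out the library labelled VHL-KO 4 raised these shares to 7.15% lower and 8.29% higher. Summed levels of 10 proximal tubule markers were 13500 to 28000 normalised CPM in libraries labelled VHL-KO and 6080 to 9030 in those labelled VHL-KO;SETD2-KO, with 5 of 10 called lower at an unadjusted p (Slc34a1, Slc22a6, Slc13a3, Aqp1 and Hnf4a) and 7 of 10 without the library labelled VHL-KO 4. The highest sum was that of VHL-KO 4, and VHL-KO 1 and 2 stood at 14100 and 13500. Slc34a1, the phosphate carrier of proximal tubule, stood at 4970, 4750 and 14180 against 2185, 2962 and 2439 normalised CPM. Lrp2 (megalin), another defining marker, had 3378, 3344 and 938.2 against 1165, 1678 and 1731. Slc5a12 alone of this list had a log2 fold change above 0, at 0.50 (unadjusted p = 0.528 in edgeR's test). Without the library labelled VHL-KO 4 that of Slc5a12 was 0.017. Of 4 podocyte markers 2 were called higher at an unadjusted p, with groups that did not overlap, Nphs1 (nephrin) with a log2 fold change of 1.09 (unadjusted p = 0.0369) and Wt1 with 1.495 (unadjusted p = 0.0138), and without the library labelled VHL-KO 4 Synpo was called higher as well (1.39, unadjusted p = 0.00112). The 4 together summed to 1180 to 2000 normalised CPM against 1670 to 3870. Endothelial markers summed to 827 to 1680 against 1210 to 3990, with 0 of 5 called in either fit. The part of these lists in the members' results was not tested.

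The marker sums varied from library to library. For VHL-KO;SETD2-KO 3, podocyte and endothelial sums of 1670 and 1210 fell within the range of the libraries labelled VHL-KO. The proximal tubule sum of VHL-KO;SETD2-KO 3, 9030, lay below the 13500 to 28000 of those libraries. Nqo1 of VHL-KO;SETD2-KO 3 was 26.5 normalised CPM, the highest of its group, and Gclm was 86.0, the lowest. Whether any of these sums goes with Nqo1 or Gclm was not tested. Thick limb (2180) and distal convoluted tubule (1690) sums of VHL-KO;SETD2-KO 3 were second to those of VHL-KO 4 (3060 and 1720). The same 2 libraries held the highest Gpx3 and Hmox1. Markers of these distal segments were called higher in libraries labelled VHL-KO;SETD2-KO in some cases although the sums overlapped, beside 2.66% of all tested genes. Kcnj1 of the thick limb (1 of 4) had a log2 fold change of 1.63 (unadjusted p = 0.0311), and Atp6v1g3 and Slc26a4 of the collecting duct (2 of 6) had 1.82 and 1.47 (unadjusted p = 0.0117 and 0.0457), none with overlapping groups. Other markers of the same lists had log2 fold changes below 0 that did not pass the test, -1.86 for Aqp2, -1.80 for Fxyd4 and -1.06 for Aqp3 in the collecting duct list and -0.74 for Umod in that of the thick limb. Without the library labelled VHL-KO 4, Kcnj1 and Atp6v1g3 were called higher again, Slc12a3 of the distal convoluted tubule was called higher (1.08, unadjusted p = 0.0377), and Slc26a4 was not called. That fit called 8.29% of all tested genes higher and 7.15% lower. The injury marker Havcr1 (KIM-1) was called lower in both fits, at most 1.94 normalised CPM in any library. In the fit without VHL-KO 4 Adgre1 of the leukocyte list was called lower and Acta2 of the stromal list higher. Collecting duct markers summed to 52.5 to 427 against 68.3 to 188, leukocyte markers to 156 to 671 against 136 to 352, stromal markers to 45.2 to 288 against 42.2 to 136, red cell markers to 456 to 1510 against 439 to 509 and tubular injury markers to 7.38 to 33.2 against 6.57 to 11.4 normalised CPM. In all these lists no marker was at 0 counts in any library, and VHL-KO 4 held the highest sum of the proximal tubule, thick limb, distal convoluted tubule, collecting duct, leukocyte, stromal and red cell lists. Their part in the results was not tested.

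**Figure D4:**
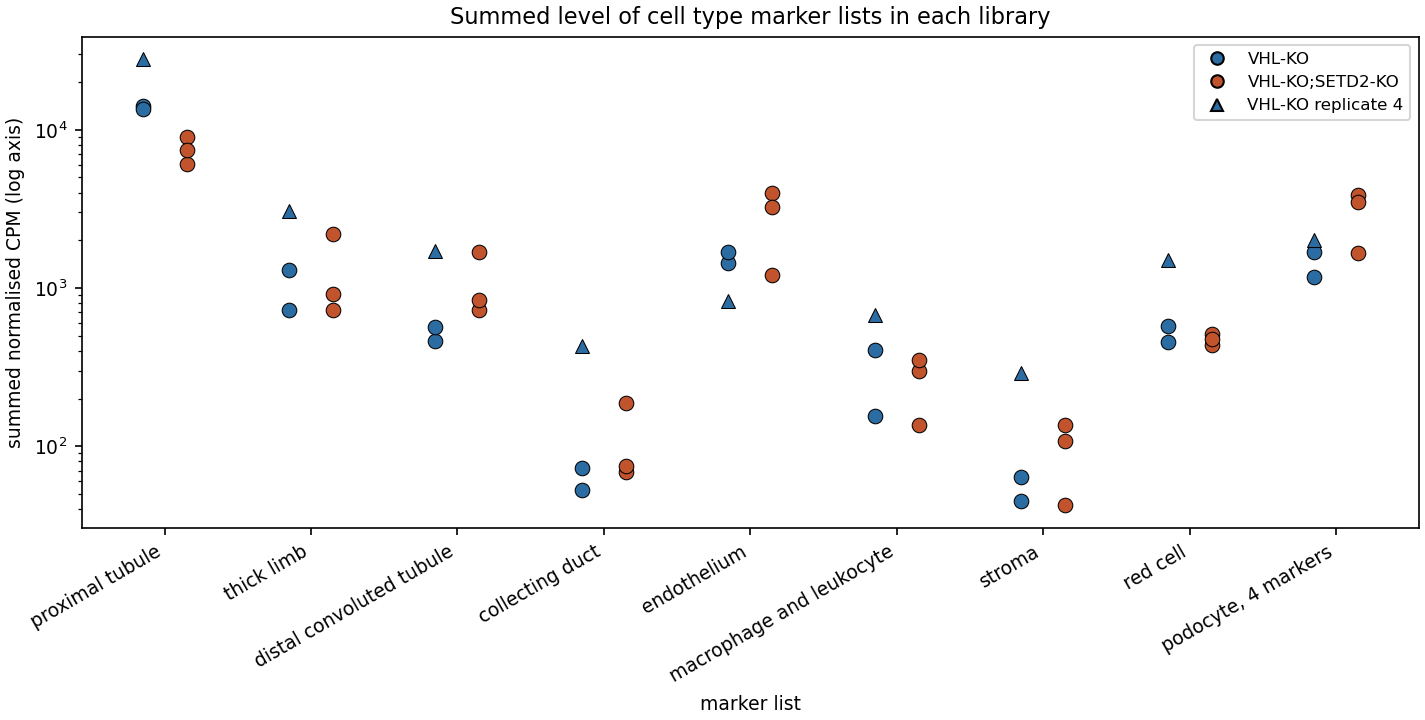
Summed normalised CPM (log axis) of the markers of 9 kidney cell types in each library, with a triangle for the library labelled VHL-KO 4. Proximal tubule markers lie at 13500 to 28000 in libraries labelled VHL-KO and at 6080 to 9030 in those labelled VHL-KO;SETD2-KO, and the sums of the other 8 lists overlap between the groups.

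Of 73 further genes in 9 lists of the antioxidant and NRF2 pathways, 72 could be tested, all but Gpx2. At an unadjusted p under 0.05 with a fold of at least 1.5, 11 were called lower and 1 higher in libraries labelled VHL-KO;SETD2-KO, beside the 4.68% and 2.66% of all tested genes, and 0 were called at an adjusted p in edgeR's test or limma-voom. DESeq2 called 19 lower and 1 higher at an unadjusted p (7.75% and 2.86% of all tested genes), and 4 of them, all lower, at an adjusted p (0.383%): Ggt1 (0.0249), Gss (0.0252), Gpx1 (0.0471) and Msrb1 (0.0495). The groups did not overlap for 22 genes that were lower and 3 that were higher (Gpx8, Txnip and Selk), against 11% and 9.62% of all tested genes. The median log2 fold change of the 72 was -0.62. It was -0.24 when the library labelled VHL-KO 4 was left out, with 14 called lower and 7 higher, where that fit called 7.15% of all tested genes lower and 8.29% higher. Leaving out the library labelled VHL-KO;SETD2-KO 2, 3 or 4 gave 2, 4 and 2 lower and 1 higher each. Over all tested genes those fits called 206 of 15010, 328 of 14928 and 268 of 15088 lower, and 179, 354 and 187 higher. limma-voom called 6 of the 72 lower and 1 higher (3.33% of all tested genes lower, and 423 of 14611 higher).

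Peroxidases and peroxiredoxins other than the members had 2 of 9 called lower and 1 higher. Gpx1, the main cytosolic glutathione peroxidase and a selenoprotein, stood at 1491, 1407 and 5560 normalised CPM across the libraries labelled VHL-KO 1, 2 and 4 and at 758, 875 and 772 in those labelled VHL-KO;SETD2-KO 2, 3 and 4. Its groups did not overlap, with a log2 fold change of -1.82 (unadjusted p = 0.0221), and -0.86 (unadjusted p = 0.00382) without the library labelled VHL-KO 4. Prdx5, a peroxiredoxin of mitochondria and peroxisomes, had a log2 fold change of -1.68 (unadjusted p = 0.038), and -0.58 (unadjusted p = 0.0258) without that library, a fold of 1.49 that was not called. Prdx1, a cytosolic peroxiredoxin, was called lower in that fit alone (-0.62, unadjusted p = 0.0131). Gpx8, an enzyme of the endoplasmic reticulum, was the gene called higher, at 7.81, 6.28 and 2.80 against 20.1, 17.6 and 13.3 normalised CPM. All 3 libraries labelled VHL-KO;SETD2-KO lay above the others for Gpx8, with a log2 fold change of 1.59 (unadjusted p = 0.0108), and 1.26 (unadjusted p = 0.00222) without the library labelled VHL-KO 4.

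Genes of superoxide handling and glutathione supply were also among those called lower. Sod3, the extracellular dismutase, and Ccs, the copper chaperone of SOD1, were both called lower (2 of 2), with log2 fold changes of -1.71 and -1.22 (unadjusted p = 0.0367 and 0.049). These came to -0.66 and -0.50 without the library labelled VHL-KO 4, and neither was called. limma-voom with 6 libraries called 0 of these 2. In glutathione supply 2 of 10 were called lower. Gss, which completes glutathione synthesis after the GCLC and GCLM step, stood at 201, 179 and 722 against 92.5, 80.6 and 97.1 normalised CPM. Its groups were far apart, with a log2 fold change of -2.03 (unadjusted p = 0.0113), and -1.08 (unadjusted p = 0.000394) without the library labelled VHL-KO 4. Ggt1, the brush border enzyme that begins breakdown of extracellular glutathione, gave -2.27 (unadjusted p = 0.0124) and -1.10 (unadjusted p = 0.000798), and proximal tubule also carries it as a characteristic enzyme.

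The thioredoxin list had 0 of 6 called in edgeR's test at an unadjusted p, 0 in limma-voom and 1 in DESeq2 (Txn2). Txn2, mitochondrial thioredoxin, had a log2 fold change of -1.22 (unadjusted p = 0.0721), Txnrd3 -0.63 (unadjusted p = 0.149) and Txnrd2, the mitochondrial reductase, -1.01 (unadjusted p = 0.221). Without the library labelled VHL-KO 4 these 3 came to -0.32, -0.38 and -0.16, and edgeR's test then called Txn1, the cytosolic thioredoxin, lower (-0.65, unadjusted p = 0.00432) and Txnip, a thioredoxin inhibitor, higher (0.71, unadjusted p = 0.00675). Among genes of NADPH supply 1 of 6 was called in edgeR's test, 1 in limma-voom and 3 in DESeq2 (Pgd, Tkt and Taldo1). The gene called in edgeR's test was Pgd of the pentose phosphate pathway, at 18.9, 23.2 and 38.4 against 12.7, 8.43 and 15.03 normalised CPM. Its groups did not overlap, with a log2 fold change of -1.15 (unadjusted p = 0.0304), and -0.81 (unadjusted p = 0.0242) without the library labelled VHL-KO 4, where Me1, the cytosolic malic enzyme, was called lower too (-1.18, unadjusted p = 0.00498). In heme breakdown 1 of 3 was called in edgeR's test, the biliverdin reductase gene Blvrb (-1.65, unadjusted p = 0.0393), which gave -0.45 (unadjusted p = 0.0556) without the library labelled VHL-KO 4. limma-voom called 0 of these 3.

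Other NRF2 targets had 0 of 10 called at an unadjusted p in edgeR's test or limma-voom and 2 in DESeq2 (Fth1 and Ftl1). Without the library labelled VHL-KO 4, edgeR's test called 3 lower (Osgin1, Ptgr1 and Ugdh) and 2 higher (Ephx1 and Abcc1). With 6 libraries the smallest p belonged to Ptgr1, a prostaglandin reductase, at 15.7, 11.3 and 15.03 against 8.01, 5.12 and 9.33 normalised CPM (log2 fold change -0.90, unadjusted p = 0.0583). Its groups did not overlap. Fth1, the ferritin heavy chain, followed with -1.23 (unadjusted p = 0.0804), or -0.41 without the library labelled VHL-KO 4, although its counts are uncertain because near-identical processed pseudogenes exist. Osgin1, an oxidative stress response gene, had -0.82 (unadjusted p = 0.0894), with groups that did not overlap.

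The regulators of NRF2 had 0 of 10 called at an unadjusted p in edgeR's test or limma-voom and 1 in DESeq2 (Sqstm1), with a median log2 fold change of 0.0013. Nfe2l2 itself was at 76.3, 95.6 and 20.2 normalised CPM across the libraries labelled VHL-KO 1, 2 and 4 and at 86.5, 103 and 98.8 in those labelled VHL-KO;SETD2-KO 2, 3 and 4. The groups overlapped, and the log2 fold change was 0.59 (SE 0.57, unadjusted p = 0.332), or 0.16 without the library labelled VHL-KO 4. Keap1 stood at 34.4, 34.1 and 114 against 33.2, 34.5 and 31.4, with a log2 fold change of -0.88 (SE 0.55, unadjusted p = 0.147) and -0.055 without the library labelled VHL-KO 4. For Keap1, 5 of the 6 libraries lay between 31.4 and 34.5, and VHL-KO 4 was the exception. Bach1, the repressor that competes with NRF2, had 35.3, 45.2 and 5.88 against 32.9, 33.3 and 40.2 (log2 fold change 0.30, SE 0.66, unadjusted p = 0.660), and leaving out VHL-KO 4 reversed its log2 fold change to -0.18. Sqstm1, whose product p62 sequesters KEAP1, gave -1.05 (SE 0.53, unadjusted p = 0.0831), or -0.39 without that library. In the fit without it 1 of the 10 was called, Nfe2l1, a relative of Nfe2l2, which was higher (0.76, unadjusted p = 0.00516).

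The list of selenoprotein synthesis and other selenoproteins leaves out those placed in other lists, such as Gpx1. Of its genes 3 of 16 were called lower and 0 higher. Sephs2, which makes the selenium donor, stood at 300.4, 257 and 626 against 141, 170.1 and 172 normalised CPM. Eefsec, the elongation factor for selenocysteine, had no library labelled VHL-KO under 21.5 and none labelled VHL-KO;SETD2-KO above 17.4. Msrb1, a methionine sulfoxide reductase with selenocysteine, was at 137, 126 and 397 against 57.9, 77.6 and 71.8. The groups did not overlap for any of these 3, with VHL-KO 4 highest in each. Their log2 fold changes were -1.30, -1.56 and -1.67 (unadjusted p = 0.027, 0.0323 and 0.0157), and -0.80, -0.58 and -0.93 without the library labelled VHL-KO 4 (unadjusted p = 0.00349, 0.0139 and 0.00139), where Eefsec fell just short of the fold threshold and was not called. In that fit 4 of 16 were called lower (Sephs2, Msrb1, Sepsecs and Sepp1) and 2 higher, Sepw1 (0.93, unadjusted p = 0.00456) and Selm (0.87, unadjusted p = 0.00185). Of the members that are selenoproteins, Gpx4 had -1.68 and -0.43 in the same fits, Gpx3 -1.34 and 0.084, and Txnrd1 -0.19 and -0.52.

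**Figure D5:**
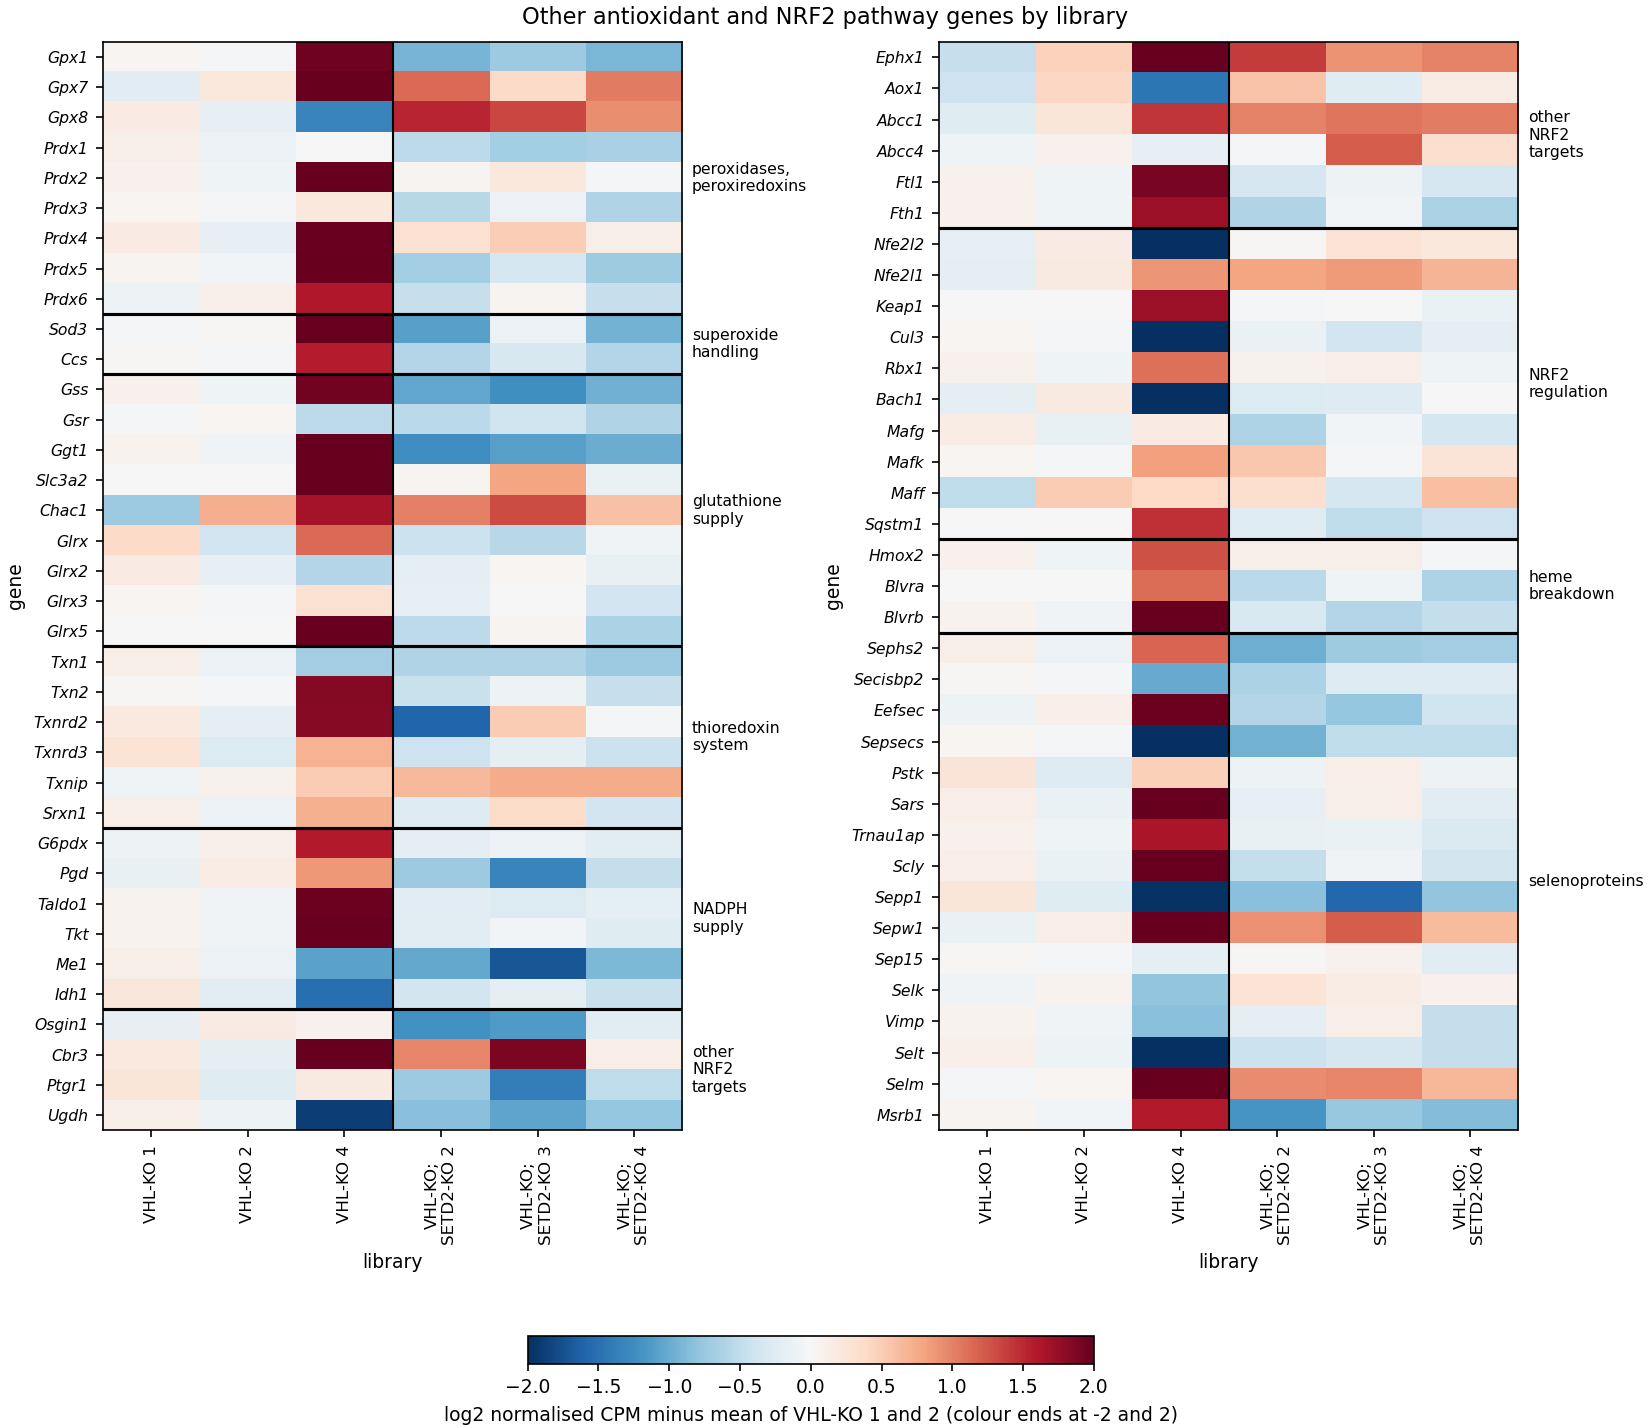
Log2 normalised CPM in each library of the 72 tested genes of the 9 further lists except Slc7a11, which had 0 counts in VHL-KO 4. Values are relative to the mean of VHL-KO 1 and 2, with colour ending at -2 and 2. The column of the library labelled VHL-KO 4 holds the most saturated colours, and Gss, Ggt1, Gpx1, Sephs2 and Msrb1 are blue in all 3 of the libraries labelled VHL-KO;SETD2-KO.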

How the data were processed

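RNA of 6 PTEC libraries, 3 per group, had been prepared with a directional kit and sequenced as paired ends. The deposited values are raw counts per gene symbol. The submitters' processing notes name HISAT2 2.0.4 and GRCm38, and the counting program, annotation and use of strand are not given in the sources used here. Genes that overlap, or that have near-identical copies, are therefore uncertain. Counts were tested with edgeR 4.0.16 in R 4.3.3 (TMM, filterByExpr by group, quasi-likelihood F test on genotype label, Benjamini-Hochberg adjustment over 14611 genes), and a standard error is the log2 fold change divided by the square root of F. A gene was called at an adjusted p under 0.05 with a fold of at least 1.5, and separately at an unadjusted p under 0.05 with that fold. Alternatives were DESeq2 1.42.0, limma-voom 3.58.1, other scalings and filters, a replicate block, each library left out, and, chosen after the values were seen, an offset from a lowess of log2 CPM on transcript length, which 94.6% of tested genes had. Ratios by length class used a pseudocount of 0.5 CPM. Transcript lengths are medians over GENCODE basic transcripts. The fit was tested on simulated data with no library standing apart and no dependence on transcript length. That test therefore does not cover what sets VHL-KO 4 apart. Members, lists and markers were chosen with earlier results of these data known. Named genes of each list are all those called and, where none was, the 3 with the smallest unadjusted p among genes with a mean of at least 1 CPM, together with Keap1, Nfe2l2 and Bach1. Libraries of 11168552 to 17883466 counts left every member with at least 398 counts in each library. One cell type marker is not reported here. There were 0 columns of samples left unused.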

Additional observations from a re-analysis of the deposited data

How the results depend on the processing

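The direction of Gpx4, Cat, Sod1, Sod2, Nqo1 and Gclm was kept in all 15 alternatives. Log2 fold changes of Gpx3 and Hmox1 turned to 0.081 and 0.080 in DESeq2 without the library labelled VHL-KO 4, and spanned -1.96 to 0.084 and -1.08 to 0.083 over fits that each lacked a single library. Gclc turned to 0.013 in limma-voom and to 0.11 with a replicate block, with -0.55 to 0.16 over left-out libraries, and Txnrd1 turned to 0.0025 with the replicate block, with -0.52 to 0.012. Main counts were 0 higher and 1 lower over all genes at an adjusted p, 388 higher and 684 lower at an unadjusted p, 3 members lower, and 1 higher and 11 lower in the further lists. DESeq2 gave 1 higher and 56 lower at an adjusted p, 1133 lower at an unadjusted p and 19 lower in the lists. DESeq2 without the library labelled VHL-KO 4 gave 545 higher and 706 lower at an adjusted p, 1425 higher and 1093 lower at an unadjusted p, and 7 higher in the lists. limma-voom called 1 member and 6 list genes lower, beside 423 higher and 486 lower over all genes at an unadjusted p. No filter on low counts gave 2 lower at an adjusted p and 634 higher at an unadjusted p, and 10 counts in every library gave 0 lower at an adjusted p. Each of these filters called 2 members lower at an unadjusted p (Gpx4 and Nqo1), without Sod1. Over all tested genes the same rule called 936 of 25375 lower with no filter and 606 of 12325 lower with 10 counts in every library. The replicate block gave 93 higher and 54 lower at an unadjusted p, with 0 members lower (Nqo1 kept a log2 fold change of -1.46, SE 1.19, at an unadjusted p of 0.218) and 0 list genes higher or lower. Replicate numbers 2 and 4 occur in both groups, but no label gives a shared mouse or day, so the numbers are not taken as pairs. Deviations of the same-numbered libraries from their group means correlated at 0.165 and -0.319. These values cannot decide on pairing, since the library labelled VHL-KO 4 enters both through the mean of its group. Over left-out libraries the counts ran from 0 to 1 lower at an adjusted p, 179 to 1243 higher and 206 to 1078 lower at an unadjusted p, 1 to 3 members lower, and 1 to 7 higher and 2 to 15 lower in the lists. The median of all genes moved to 0.13 in limma-voom and 0.11 with the replicate block. The cause of these differences was not tested.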

Other observations

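Within a library, counts of Gclc, the catalytic subunit of glutamate-cysteine ligase, divided by those of its modifier subunit Gclm do not depend on library size. This ratio was computed after the values had been seen. It was 0.969, 1.19 and 0.535 across the libraries labelled VHL-KO 1, 2 and 4, and 1.18, 1.935 and 1.35 in those labelled VHL-KO;SETD2-KO 2, 3 and 4. VHL-KO 4 was the lowest and VHL-KO;SETD2-KO 3 the highest, and the groups overlapped, since 1.18 in VHL-KO;SETD2-KO 2 lay below 1.19 in VHL-KO 2.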
